A study of Mus musculus with 4 samples.

Results

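The mitochondrial ribosomal protein genes of mouse skeletal muscle were followed across 4 genotypes. They were taken as every gene whose name on the array began with Mrpl or Mrps and a number, each read from its brightest probe among those well above background on all 4 arrays. The array held 125 such probes for 75 gene names, and all 75 genes had at least 1 probe that met this condition, so 75 of the 14973 measured genes are described here. The arrays were hybridised with total RNA from muscle of mice aged 10 weeks with free access to food. The genotypes were wild type (WT), TBP-2-/- (lacking Txnip, the thioredoxin-binding protein also called TBP-2), ob/ob (the obese mouse line without functional leptin) and ob/ob TBP-2-/-. The labels do not state which muscle was taken, the strain, the sex or whether mice were pooled. Each genotype had 1 array, so no difference below has a replicate check.

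The mitochondrial ribosome translates the few messages that mitochondrial DNA encodes, all of them for membrane subunits of the respiratory chain and ATP synthase. Its RNAs come from the mitochondrial genome, while its proteins are encoded in the nucleus, made in the cytosol and imported. Some of these proteins have counterparts in the bacterial ribosome and others were added in the mitochondrial lineage, and loss of single members impairs oxidative phosphorylation. Of the 75 genes, 48 encode proteins of the large subunit and 26 of the small subunit; Mrps18a and Mrps30 are counted with the large subunit, where these proteins sit. Mrps36, the remaining gene, keeps its ribosomal symbol although its protein is now known as a component of the 2-oxoglutarate dehydrogenase complex.

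Values are levels on a log2 scale, the processed signal of a probe relative to the 75th percentile of all probes on the same array, and differences between 2 such levels. The 75th percentile lay between 261 and 309 signal units, and 22667 to 24212 probes per array were well above background. The scanner software's own error model gave each member difference a standard error of 0.204 to 0.205 on the log2 scale, which covers measurement error within the arrays and not the spread between mice. Txnip itself, the gene whose loss defines 2 of the genotypes, had signals of 13209 in WT, 868 in TBP-2-/-, 13142 in ob/ob and 166 in ob/ob TBP-2-/-. Members were set beside the 4451 other measured genes whose mean level lay between the 10th and 90th percentiles of the members' own (log2 1.57 to 5.76), because differences on these arrays varied with signal. This group is called the signal window.

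Upstream sequence was available from RefSeq (GRCm38.p6) for 66 of the 75 members and for 2673 of the 4451 signal-window genes, over which the shares below are taken. Short motifs were counted on both strands from 250 bases before to 50 bases after each start. The NRF1 motif CGCANGCGC, bound by a nuclear activator of mitochondrial genes, was present in 17 members (25.8%), against 16.0% of signal-window genes and 6.6% of all promoters. The ETS motif CCGGAAG, the type bound by GABP, was present in 23 members (34.8%, against 19.6% and 9.1%). The YY1 motif AAGATGGCG was present in 7 members (10.6%, against 3.4% and 1.5%). At least 1 of these 3 motifs was present in 39 members (59.1%), against 33.9% of signal-window genes and 15.5% of all promoters, and no member held all 3. The ERR motif TCAAGGTCA was in 0 members (0.2% of signal-window genes), the E-box CACGTG in 5 (7.6%, against 11.2%), the GC box GGGGCGGGG in 13 (19.7%, against 24.2%) and TATAAA in 4 (6.1%, against 7.7%). The ETS and YY1 motifs can overlap by their shared letters AAG. The letters searched were settled after their counts had been seen, and a match describes sequence only. The 250 bases before the start are shown for 4 members that stand at the ends of the comparisons below. Mrps22 was the member lowest in TBP-2-/- relative to WT, Mrpl52 the lowest in ob/ob relative to WT, and Mrps27 and Mrps18b were among the lowest in ob/ob TBP-2-/- relative to ob/ob. Mrps22 lies on chr9:98601680-98601929 (minus strand), Mrpl52 on chr14:54426659-54426908 (plus strand), Mrps27 on chr13:99344536-99344785 (plus strand) and Mrps18b on chr17:35916441-35916690 (minus strand). Sequences run 5′ to 3′ along the gene, with the last base just before the start and matches to the NRF1, ETS and YY1 motifs in capitals; GC boxes are left in lower case.
Mrps22: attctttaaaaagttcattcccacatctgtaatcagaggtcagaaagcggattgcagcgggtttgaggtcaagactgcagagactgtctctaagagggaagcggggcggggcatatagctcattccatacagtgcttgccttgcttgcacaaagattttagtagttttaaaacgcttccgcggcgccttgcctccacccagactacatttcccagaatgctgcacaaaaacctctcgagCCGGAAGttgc
Mrpl52: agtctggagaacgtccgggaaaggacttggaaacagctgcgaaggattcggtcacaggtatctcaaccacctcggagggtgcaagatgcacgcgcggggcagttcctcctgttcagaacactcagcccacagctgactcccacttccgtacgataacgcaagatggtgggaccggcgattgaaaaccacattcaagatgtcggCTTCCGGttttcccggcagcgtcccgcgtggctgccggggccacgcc
Mrps27: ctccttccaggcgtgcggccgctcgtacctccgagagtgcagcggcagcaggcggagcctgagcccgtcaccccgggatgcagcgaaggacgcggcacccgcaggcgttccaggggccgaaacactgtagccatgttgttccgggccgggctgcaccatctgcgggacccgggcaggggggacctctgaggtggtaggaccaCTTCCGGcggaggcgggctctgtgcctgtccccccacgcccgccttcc
Mrps18b: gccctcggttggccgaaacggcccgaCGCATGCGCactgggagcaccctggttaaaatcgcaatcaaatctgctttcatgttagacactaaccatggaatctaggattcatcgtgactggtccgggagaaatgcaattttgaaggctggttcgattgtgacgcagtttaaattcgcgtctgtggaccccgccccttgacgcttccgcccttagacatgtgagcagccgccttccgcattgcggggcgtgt
The capitals in Mrps22, Mrpl52 and Mrps27 are ETS motifs, read on the opposite strand in Mrpl52 and Mrps27, and they begin 11, 47 and 48 bases before the start. The capitals in Mrps18b are an NRF1 motif that begins 224 bases before the start. Matches that lie after the start, 1 each in Mrpl52, Mrps27 and Mrps18b, are counted above and not shown. Members were also divided by motif. The median of TBP-2-/- minus WT was -0.23 with and -0.25 without the NRF1 motif, and -0.24 with and -0.25 without the ETS motif. In ob/ob minus WT the medians were -0.40 with and -0.29 without the ETS motif, and -0.27 with and -0.34 without the NRF1 motif.

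Across the 4 arrays the members varied by less than 2-fold and nearly all shared the same highest array. With each array scaled to its 75th percentile, 74 of 75 members had their highest level in WT, against 46.9% of signal-window genes and 35.3% of all measured genes. Mrps6, a small-subunit protein with a bacterial counterpart, was the exception, with levels of 3.62 in WT, 3.49 in TBP-2-/-, 3.57 in ob/ob and 3.65 in ob/ob TBP-2-/-. The lowest level was in ob/ob TBP-2-/- for 37 members (49.3%), in ob/ob for 32 (42.7%) and in TBP-2-/- for 6 (8.0%). The shares were 24.7%, 30.3% and 30.2% of signal-window genes, and 24.5%, 26.1% and 25.8% of all measured genes. The range over the 4 arrays was at least 1.5-fold for 18 members and reached 2-fold for 0. These ranges were not counted for other genes, so they do not show whether members varied more or less than others. Mrps34, a small-subunit protein specific to mitochondria, varied least, with levels of 5.38 in WT, 5.34 in TBP-2-/-, 5.37 in ob/ob and 5.35 in ob/ob TBP-2-/-. The place of WT at the top depends on the scaling: when arrays were scaled on their spike-in RNAs instead, 70 of 75 members were higher on the ob/ob array than on the WT array and 38 of 75 were higher on the TBP-2-/- array.

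**Figure D1:**
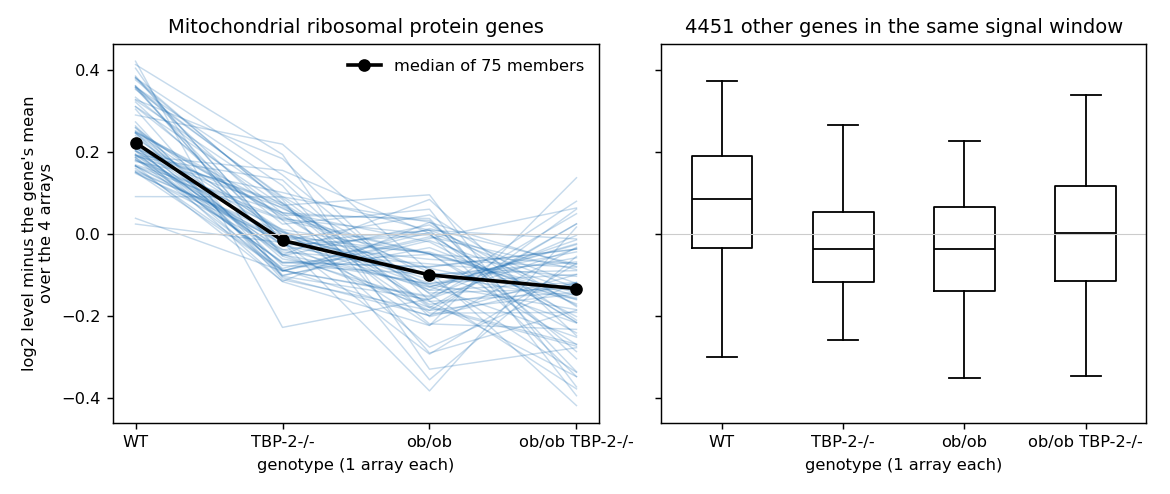
Levels of the 75 members (left, 1 line per gene, with their median in black) and of 4451 signal-window genes (right, boxes from the lower to the upper quartile, whiskers at the 5th and 95th percentiles), each as the log2 level minus the gene's mean over the 4 arrays, by genotype with 1 array each, scaled to the 75th percentile. 74 of 75 members are highest in WT, a position that does not hold against ob/ob under spike-in scaling.

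Loss of Txnip in lean mice went with slightly lower levels of the whole group under 75th percentile scaling. In TBP-2-/- minus WT all 75 members lay below 0 under 75th percentile scaling (37 of 75 under spike-in scaling), with a median of -0.24 (interquartile range -0.30 to -0.18, SD 0.109 over genes), a 1.18-fold lower level. The signal-window genes had a median of -0.13 (SD 0.304, 73.3% below 0) and all measured genes one of -0.07 (SD 0.397). Members were thus 0.11 lower than genes of like signal and spread about their median more narrowly (interquartile range 0.12 wide, against 0.26). Over the dimmest, middle and brightest 25 members the medians were -0.22, -0.24 and -0.27. Other genes of those levels had -0.08, -0.15 and -0.18. The shift relative to the signal window cannot change under spike-in scaling or a different percentile, which move each array by a constant. It was -0.10 under quantile normalization and after normexp background correction, and -0.12 with the median of a gene's probes. The large subunit had a median of -0.25 and the small subunit one of -0.24, and both contained only members below 0 under 75th percentile scaling. Only 1 member, 1.3%, was lower by 1.5-fold or more, where 2.97% of all measured genes were, and 0 members were higher by that much, where 5.89% were.

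That member was Mrps22, a small-subunit protein specific to mitochondria whose loss of function in people impairs several respiratory complexes. The array reads it with 1 probe of 60 bases, at 98398184 to 98398243 of chromosome 9 in the mm8 build. It had a level of 2.15 in WT, 1.498 in TBP-2-/-, 1.57 in ob/ob and 1.69 in ob/ob TBP-2-/-, so that WT stood apart and the other 3 arrays lay close together. The difference between TBP-2-/- and WT was -0.65 ± 0.204 (error-model SE). The next lowest were Mrpl54, specific to mitochondria, at -0.51, Mrpl1, a large-subunit protein with a bacterial counterpart, at -0.42 and Mrps14, a small-subunit one, at -0.41. At the other end were Mrps23 at -0.0007, Mrps18b at -0.04, Mrps34 at -0.05 and Mrpl14 at -0.06, none of them beyond its standard error.

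Loss of Txnip on the ob/ob background showed no common direction under 75th percentile scaling. In ob/ob TBP-2-/- minus ob/ob, 41 members lay below 0 and 34 above under 75th percentile scaling (75 below 0 under spike-in scaling), with a median of -0.02 (interquartile range -0.16 to 0.08, SD 0.186). Signal-window genes had a median of 0.04 (SD 0.328, 41.9% below 0) and all measured genes one of 0.03. Members thus lay 0.07 below genes of like signal, where the gap in lean mice was 0.11. Under spike-in scaling the members' median was -0.54 here and 0.006 in lean mice. The medians were -0.01 for the large and -0.04 for the small subunit. By 1.5-fold or more, 0 members were higher, where 6.06% of all measured genes were, and 0 were lower, where 3.51% were. The highest differences belonged to Mrpl52 (0.40), to Mrpl23 (0.36), a protein at the exit of the peptide tunnel, to Mrps12 (0.30), a protein of the decoding centre, and to Mrpl11 (0.26), a protein of the region where translation factors bind. The lowest belonged to Mrpl4 (-0.47), which lines the peptide tunnel, Mrps27 (-0.45), a protein with pentatricopeptide repeats, Mrpl37 (-0.37) and Mrps18b (-0.35).

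**Figure D2:**
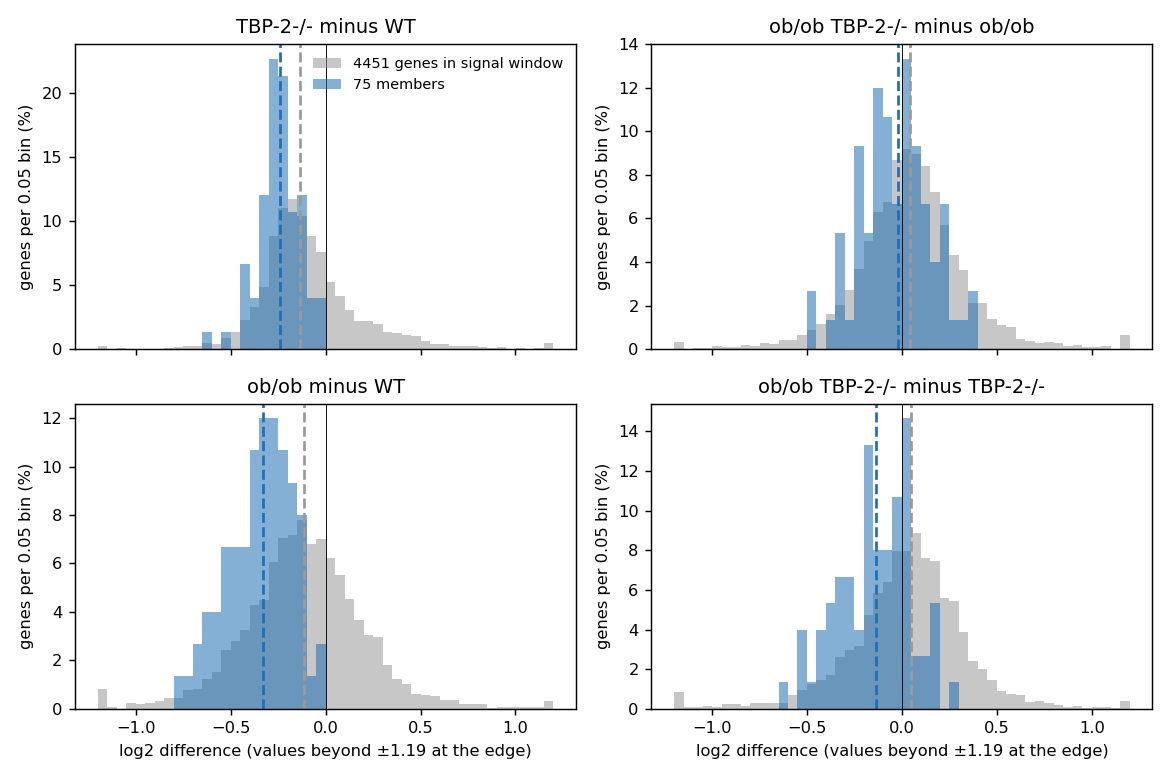
Share of genes by log2 difference in each of the 4 comparisons under 75th percentile scaling, for the 75 members (blue) and 4451 signal-window genes (grey), with dashed lines at the medians. The members' distribution is narrower than the window's and is centred below it in all 4, by 0.11, 0.07, 0.21 and 0.18 from top left to bottom right. Spike-in scaling shifts members and window by the same constant, so it cannot change these gaps.

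The ob/ob genotype with Txnip intact showed the lowest median of the 4 comparisons under 75th percentile scaling, and the widest gap to the signal window. In ob/ob minus WT all 75 members lay below 0 under 75th percentile scaling (5 of 75 under spike-in scaling), with a median of -0.33 (interquartile range -0.46 to -0.22, SD 0.171), a 1.26-fold lower level. Signal-window genes had a median of -0.11 (SD 0.380, 66.1% below 0) and all measured genes one of -0.05 (SD 0.459), so members lay 0.21 below genes of like signal. Over the dimmest, middle and brightest 25 members the medians were -0.25, -0.31 and -0.36. Other genes of those levels had -0.04, -0.13 and -0.21. Since this comparison and TBP-2-/- minus WT use the same WT array, the 2 counts of 75 are not independent of each other. Medians were -0.34 for the large and -0.29 for the small subunit. Lower by 1.5-fold or more were 8 members, 10.7%, against 6.73% of all measured genes and 5.93% of the signal window, while 0 were higher, where 6.24% of all measured genes were.

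Of these 8, 5 encode large-subunit and 3 small-subunit proteins. Mrpl52, a large-subunit protein specific to mitochondria, had levels of 4.71 in WT, 4.31 in TBP-2-/-, 3.94 in ob/ob and 4.34 in ob/ob TBP-2-/-. WT was highest, ob/ob lowest, and both arrays without Txnip lay together between them. Its ob/ob minus WT difference was -0.77 ± 0.204 (error-model SE), and its probe covers 53383875 to 53383934 of chromosome 14 in mm8. Mrpl21 had levels of 2.70, 2.49, 1.96 and 2.01 in the same order of genotypes, so both ob/ob arrays lay below both lean ones, with a difference of -0.74 between ob/ob and WT. Mrps12 had levels of 4.30, 4.06, 3.62 and 3.92, and Mrps28, another small-subunit protein, had levels of 6.56, 6.16, 5.89 and 6.11. For both genes WT was highest and ob/ob lowest, with differences of -0.68 and -0.67. The others were Mrpl51 (-0.65), Mrpl33 (-0.64), Mrpl54 (-0.60) and Mrps15 (-0.59). Members that differed least were Mrps34 (-0.02), Mrps6 (-0.05), Mrps23 (-0.06) and Mrpl44 (-0.10), the last an enzyme-like protein of the large subunit related to ribonuclease III.

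In the absence of Txnip the ob/ob genotype had a smaller median difference under 75th percentile scaling, with a similar gap to the signal window. In ob/ob TBP-2-/- minus TBP-2-/-, 55 members lay below 0 and 20 above under 75th percentile scaling (68 below 0 under spike-in scaling), with a median of -0.13 (interquartile range -0.27 to 0.00, SD 0.192). Signal-window genes had a median of 0.05 (SD 0.346, 42.9% below 0). Members thus lay 0.18 below them, where the gap in ob/ob minus WT was 0.21. Under spike-in scaling the members' median was -0.25 here and 0.32 in ob/ob minus WT. The medians were -0.15 for the large and -0.06 for the small subunit. By 1.5-fold or more, 0 members were higher, where 5.74% of all measured genes were, and 1 was lower, where 4.82% were. This was Mrps9, a small-subunit protein with a bacterial counterpart, with levels of 3.27 in WT, 3.20 in TBP-2-/-, 2.89 in ob/ob and 2.56 in ob/ob TBP-2-/-. Its lean arrays lay together, and the difference between the arrays without Txnip was -0.64 ± 0.204 (error-model SE). Its 2 measured probes differed by 0.16 in this comparison. Next were Mrpl47 (-0.53), Mrps35 (-0.52) and Mrps18b (-0.50), while Mrpl23 (0.25), Mrps22 (0.19), Mrps18c (0.17) and Mrps6 (0.15) were highest.

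The one model with residual degrees of freedom, limma with additive terms for the TBP-2-/- and ob/ob genotypes, called no member. It left 1 residual degree of freedom, and its error is the departure from additivity and not the spread between mice. At a Benjamini-Hochberg adjusted p of 0.05 over all measured genes, 0 members were called for the TBP-2-/- genotype, where 0.194% of genes were, and 0 for the ob/ob genotype, where 0.775% were. The lowest adjusted p of a member was 0.519 for TBP-2-/- and 0.185 for ob/ob in the limma fit. At an unadjusted p under 0.05, 0 and 9 members passed, where 10.4% and 14.5% of all measured genes did. After normexp background correction 7 of 75 members were called for ob/ob in the limma fit, all lower, among 1019 of 14973 measured genes.

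Over the 75 members the differences TBP-2-/- minus WT and ob/ob TBP-2-/- minus ob/ob, which share no array, had a Pearson r of -0.39 and a Spearman rho of -0.34. Over the signal window, which includes Txnip itself, r was 0.40 and rho 0.21. Over all measured genes r was 0.31 and rho 0.22. The differences ob/ob minus WT and ob/ob TBP-2-/- minus TBP-2-/-, which share no array either, had an r of 0.06 over members, against 0.55 and 0.44. Their rho was 0.02 over members, against 0.45 over the signal window and 0.37 over all measured genes. These correlations run across genes, which are not independent replicates, and are given without a p. The differences in lean and ob/ob mice were 0.20 apart at the median (ob/ob background minus lean background), with a signal-window median of 0.16. This gap was above 0 for 62 of 75 members under 75th percentile scaling. It was also above 0 for 3164 of 4451 signal-window genes and 8911 of 14973 measured genes. Under spike-in scaling the members' median was -0.56, so its sign depends on the scaling. Mrpl52 was farthest above 0 (0.80), followed by Mrps22 (0.77), Mrpl23 (0.68), Mrps28 (0.62) and Mrpl54 (0.61). Mrpl23 is an example of the pattern, with levels of 6.69 in WT, 6.37 in TBP-2-/-, 6.26 in ob/ob and 6.62 in ob/ob TBP-2-/-. WT and ob/ob TBP-2-/- were its high arrays and the 2 single genotypes its low ones. Mrpl4 went the opposite way in ob/ob mice, with levels of 2.14 in WT, 2.003 in TBP-2-/-, 2.03 in ob/ob and 1.56 in ob/ob TBP-2-/-, where the last array stood below the other 3.

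**Figure D3:**
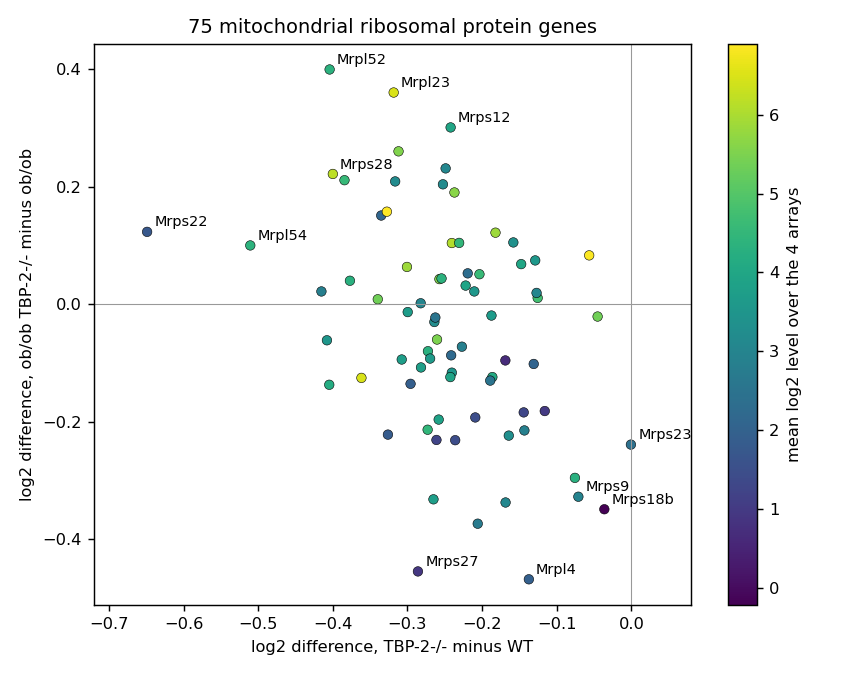
Log2 difference of each of the 75 members between mice without and with Txnip, in lean mice (horizontal axis) and in ob/ob mice (vertical axis), coloured by mean log2 level, under 75th percentile scaling. All members lie left of 0 and spread from -0.47 to 0.40 vertically, with Pearson r -0.39, and under spike-in scaling the points move to 37 of 75 left of 0 and 75 of 75 below 0.

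The members' signal level moved with their values in ob/ob TBP-2-/-. In ob/ob TBP-2-/- minus ob/ob the median was -0.18 over the dimmest 25 members, -0.03 over the middle 25 and 0.06 over the brightest 25. Other genes in the same 3 ranges of level had medians of 0.01, 0.05 and 0.10. The correlation of level with difference was 0.53 over the 75 members and 0.05 over the signal window in that comparison, and 0.41 against -0.0011 in ob/ob TBP-2-/- minus TBP-2-/-. In the comparisons that do not use that array it was -0.18 for TBP-2-/- minus WT and -0.23 for ob/ob minus WT. A similar order was seen within genes: for 25 members with several probes to RefSeq transcripts, the brightest probe gave a higher value than the dimmest in 19 of 25 for ob/ob TBP-2-/- minus ob/ob (median gap 0.07) and in 19 of 25 for ob/ob TBP-2-/- minus TBP-2-/- (median gap 0.11). In the comparisons without that array it did so in 12 and 13 of 25. The part of probe brightness in the differences among members was not tested further. Mrpl33, Mrpl14 and Mrpl23 had the brightest probes, with mean levels of 6.90, 6.87 and 6.48, and Mrps18b, Mrpl9 and Mrps27 the dimmest, at -0.21, 0.67 and 0.91.

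**Figure D4:**
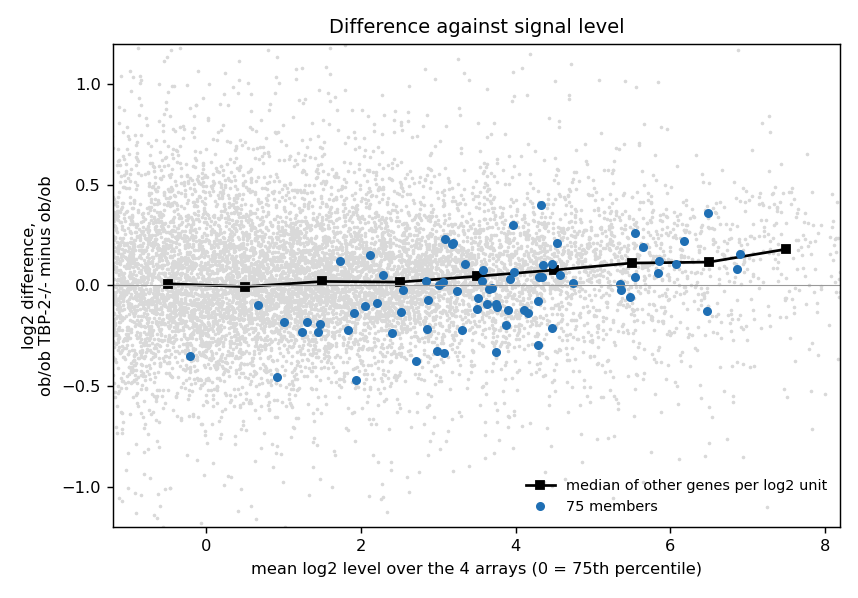
Log2 difference ob/ob TBP-2-/- minus ob/ob against mean log2 level over the 4 arrays under 75th percentile scaling, for the 75 members (blue), all measured genes (grey points) and the median of other genes in each log2 unit of level (black squares). Of the dimmest 25 members 20 lie below 0, against 6 of the brightest 25, with Pearson r 0.53 over members, while under spike-in scaling all 75 members lie below 0.

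Several members were read by more than 1 probe, which gives a check within the array. Of the 125 probes 115 were well above background on all 4 arrays, and 27 members had several such probes. Over 25 members with several probes to RefSeq transcripts, the median range between probes of a gene was 0.07 for TBP-2-/- minus WT, 0.14 for ob/ob TBP-2-/- minus ob/ob, 0.11 for ob/ob minus WT and 0.12 for ob/ob TBP-2-/- minus TBP-2-/-. Probes of Mrpl38, Mrps18b, Mrps2, Mrps5 and Mrps7 differed by over 0.58 in at least 1 comparison, but for all of these except Mrps7 the width came from a dim probe to a cDNA clone. Between probes to RefSeq transcripts only Mrps7 differed by that much, with a widest range of 0.70. For Mrps2 the range reached 1.30 in ob/ob TBP-2-/- minus ob/ob, where its RefSeq probes gave -0.18 and -0.51 and a dim probe to a cDNA clone gave 0.79.

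Proteins of the mitochondrial ribosome with other names were read from a separate list. All 7 of 7 listed (Dap3, Ptcd3, Aurkaip1, Chchd1, Gadd45gip1, Mrpl57 and Mrpl58) were below 0 under 75th percentile scaling in TBP-2-/- minus WT and in ob/ob minus WT, each time with a median of -0.31. In ob/ob TBP-2-/- minus ob/ob the median was -0.01 with 4 of 7 below 0, and in ob/ob TBP-2-/- minus TBP-2-/- it was 0.08 with 4 of 7 above 0, where the members had a median of -0.13 and Dap3 (0.30) lay above the highest member. By 1.5-fold or more 1 was lower in ob/ob minus WT, Chchd1 (-0.65), which was also lowest in TBP-2-/- minus WT (-0.51). Mrpl42, which the array lists under an older name, had differences of -0.24, 0.14, -0.61 and -0.22 in the 4 comparisons in the order used above.

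The rest of mitochondrial translation was described by 3 lists. Of 20 mitochondrial aminoacyl-tRNA synthetase and amidotransferase genes, which charge the transfer RNAs, 19 were below 0 in TBP-2-/- minus WT (median -0.19) and 18 in ob/ob TBP-2-/- minus ob/ob (median -0.21). Their median was -0.29 for the ob/ob genotype with Txnip and -0.31 without it. Among 16 translation factors and related genes the 4 medians were -0.21, -0.13, -0.29 and -0.24, again in that order. Mss51 (Zmynd17 on the array) was set in this list for the role of its yeast relative in translation and stood far from the others, with signals of 180 in WT, 1081 in TBP-2-/-, 14211 in ob/ob and 16791 in ob/ob TBP-2-/-. Tsfm, an elongation factor, was lowest in ob/ob TBP-2-/- minus ob/ob (-0.71). Among 21 measured genes for ribosome assembly and ribosomal RNA modification the medians were -0.23, -0.15, -0.07 and -0.16. In ob/ob TBP-2-/- minus ob/ob 3 of the 21 were lower by 1.5-fold or more, namely the RNA methyltransferase Mrm2 (-0.81), the assembly factor Mettl17 (-0.60) and the GTPase Eral1 (-0.61).

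The products and the regulators of the pathway were set beside the members. The nuclear-encoded respiratory chain genes had medians of -0.30 over complex I (35 genes) and -0.32 over complexes II to V (44 genes) in TBP-2-/- minus WT, and of -0.44 and -0.43 in ob/ob minus WT. In ob/ob minus WT 10 of 35 and 8 of 44 were lower by 1.5-fold or more. In ob/ob TBP-2-/- minus ob/ob both lists had medians near those of the members (-0.03 and -0.04). The 79 measured cytosolic ribosomal protein genes had medians of -0.17 and -0.39 in the comparisons with WT, but one of 0.30 in ob/ob TBP-2-/- minus ob/ob, where 77 of 79 were above 0 under 75th percentile scaling; the difference from the members was not tested. Their probes were also brighter, with a geometric mean scaled signal of 92.8 in WT against 14.5 for the members. Among 10 genes for mitochondrial DNA transcription and upkeep the medians in the 4 comparisons were -0.26, -0.17, -0.12 and 0.05, and Mterf1a was lowest in TBP-2-/- minus WT (-0.98). The 9 nuclear regulators had medians of -0.13, -0.16, 0.03 and -0.08, with 5 of 9 above 0 in ob/ob minus WT under 75th percentile scaling. Among them Ppargc1a, the coactivator that drives mitochondrial biogenesis, had differences of -0.33, -0.16, -0.72 and -0.55, and Nrf1 had -0.14, -0.10, 0.18 and 0.23.

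**Figure D5:**
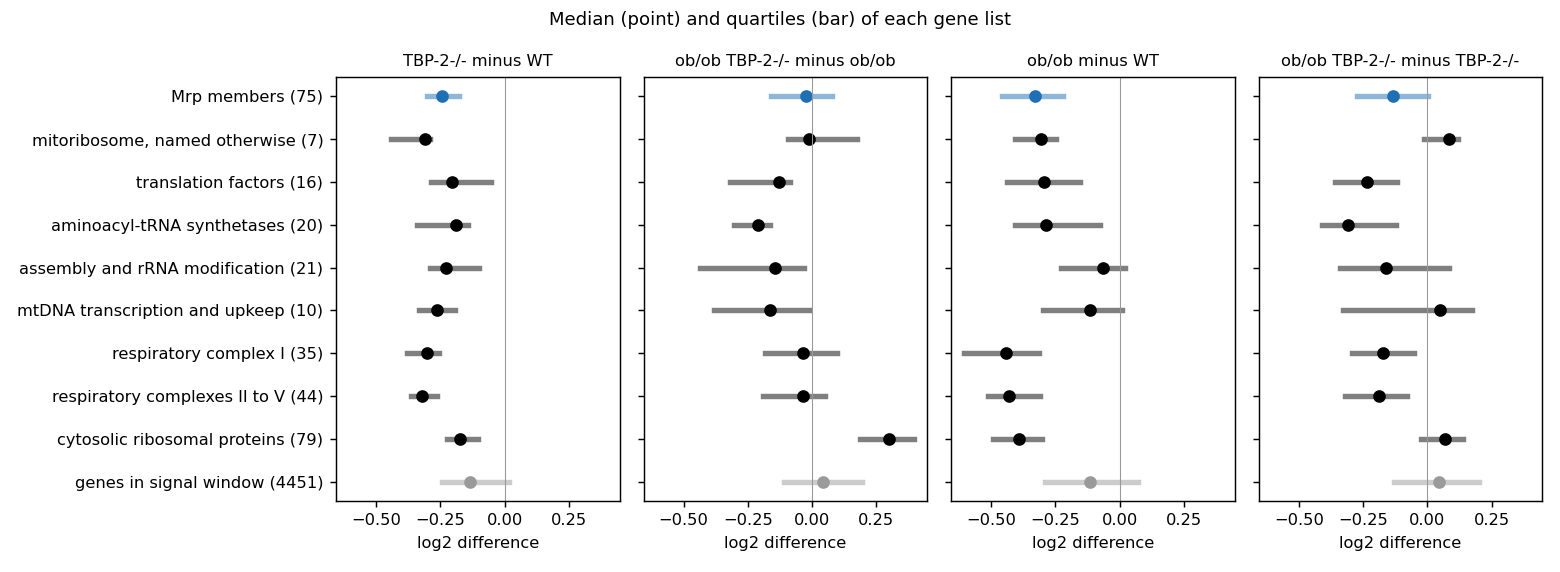
Median (point) and lower to upper quartile (bar) of the log2 differences of each gene list in the 4 comparisons under 75th percentile scaling, with the number of measured genes in brackets. Members, other mitochondrial ribosome proteins and respiratory complexes lie below 0 in the comparisons with WT, and cytosolic ribosomal proteins lie at 0.30 in ob/ob TBP-2-/- minus ob/ob; spike-in scaling shifts the all-gene median of the 4 comparisons to 0.18, -0.48, 0.60 and -0.08 and every list with it.

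Markers of fibre types and of other tissues also differed between the arrays, and in RNA of whole muscle fewer cells of a type and less RNA per cell cannot be told apart. All 8 slow-fibre markers, among them Myh7, the slow myosin heavy chain, were lower in ob/ob than in WT under 75th percentile scaling (6 of them by 1.5-fold or more, median -0.80). Their medians were -0.11 in TBP-2-/- minus WT and -1.38 in ob/ob TBP-2-/- minus TBP-2-/-, against -0.24 and -0.13 for the members. The slow-fibre markers' summed scaled signal was 2552 in WT, 2314 in TBP-2-/-, 1624 in ob/ob and 1401 in ob/ob TBP-2-/-. The 8 general muscle fibre markers summed to 8698, 7623, 7832 and 8149 in the same order, with WT highest. The 7 tendon markers summed to 21.8, 67.7, 94.7 and 126, so WT stood apart from the other 3 arrays, and all 7 were lower in WT than in both TBP-2-/- and ob/ob under 75th percentile scaling. Adipocyte markers (7 of 8 measured) summed to 159, 212, 134 and 244, a sum that Fabp4 carries, while their geometric mean scaled signal was 2.33, 4.18, 3.34 and 7.42 and 5 of 7 were above 0 in ob/ob minus WT under 75th percentile scaling. Schwann cell markers (6 of 6) to 16.1, 36.7, 28 and 42.7, macrophage markers (6 of 7) to 57.5, 74.1, 55.8 and 66.6, fibroblast markers (6 of 6) to 293, 378, 285 and 430, and endothelial markers (6 of 6) to 21.1, 24.0, 24.7 and 27.5. The members summed to 1901, 1590, 1445 and 1500. No measured marker was at 0, and Pck1 and Itgam of these lists were not measured. The part of fibre type and of other tissue in the members' values was not tested.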

How the data were processed

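Total RNA was labelled with Cy3 and hybridised to 1-colour Agilent arrays, 1 per genotype, per the labels' protocols. The deposited scanner files hold intensity values per spot from Agilent Feature Extraction 9.5.3.1, background-subtracted and detrended within the array and not normalized between arrays, per the file headers; probe coordinates are on mm8. The authors' deposited value table holds log2 values that, set against the scanner values, are scaled to the 75th percentile and centred on each probe's median. Deposited flags of other kinds mark outlier spots and spots well above background, per the file headers. 59 to 110 outlier spots per array were left out, 0 were saturated, and replicate spots of a probe were averaged; probes printed 10 times had a median SD of 0.0592 to 0.0691 (log2). Levels are log2 signals relative to the 75th percentile of the array, taken over all probes that are no controls. A gene was its brightest probe among those well above background on all 4 arrays, by the file's name. Of 75 members 74 matched a current symbol by accession. Differences were described by medians and counts past 1.5-fold. The additive fit used limma 3.58.1 in R 4.3.3 with Benjamini-Hochberg adjustment at 0.05 and was checked on simulated data; other steps used Python 3.11.15 with pandas 2.3.3 and numpy 2.4.6. Alternatives were spike-in scaling, the 75th percentile over detected probes, quantile normalization, normexp with an offset of 50, no filter on dim probes, a minimum level at the 25th percentile, the median of a gene's probes and the deposited value table. Genes named are the 4 highest and 4 lowest members per comparison, those past 1.5-fold, the 5 largest differences between backgrounds, the 3 brightest and dimmest, those whose probes differ by over 0.58, and up to 4 genes of each other list. The members and lists were chosen with earlier results of these data known.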

Additional observations from a re-analysis of the deposited data

Results flagged for a closer look

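For 8 members the Txnip difference had opposite signs in lean and in ob/ob mice, each larger than its error-model standard error, under 75th percentile scaling. These 8 are 10.7% of the members, where 7.05% of signal-window genes and 7.69% of all measured genes had opposite signs by the same measure. All 8 were lower in lean and higher in ob/ob mice, as were 5.89% of signal-window genes and 5.11% of all measured genes. Under spike-in scaling all 75 members were below 0 in ob/ob TBP-2-/- minus ob/ob, so the opposite signs depend on the scaling. With 1 array per genotype the difference between backgrounds was not tested. It was 0.80 for Mrpl52 (-0.40 in lean and 0.40 in ob/ob mice), 0.68 for Mrpl23 (-0.32 and 0.36) and 0.62 for Mrps28 (-0.40 and 0.22). For Mrpl27 it was 0.60 (-0.38 and 0.21) and for Mrpl11 0.57 (-0.31 and 0.26). For Mrps12 it was 0.54 (-0.24 and 0.30), for Mrps21 0.53 (-0.32 and 0.21) and for Mrps18c 0.48 (-0.25 and 0.23). Mrpl40 (-0.25 and 0.20) sat at its standard error in ob/ob mice and is not counted.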

How the results depend on the processing

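The members' medians relative to the signal window kept their direction in all 4 comparisons under every alternative, and moved by less than the median range between probes of a gene. Of the values that answer a comparison, over all alternatives, 111 stayed the same, 12 moved and 1 reversed. A median was the same when it moved by less than that range (the largest of the 4 for the difference between backgrounds). A count was the same when equal to the main count (0 and 0 included) or within 1.5-fold of it. The 111 include outcomes fixed in advance, because spike-in scaling and the 75th percentile over detected probes move each array by a constant. Such a constant cancels in a median relative to the signal window. In TBP-2-/- minus WT no filter on dim probes, the minimum level and the deposited value table also left this median at -0.1095. Under spike-in scaling the members lower by 1.5-fold or more numbered 0 in TBP-2-/- minus WT, where 1.12% of all measured genes were. They numbered 34 in ob/ob TBP-2-/- minus ob/ob, where 34.83% were, and 5 in ob/ob TBP-2-/- minus TBP-2-/-, where 7.5% were. In ob/ob minus WT 0 were lower and 2 higher, where 0.96% and 51.63% of all measured genes were. The median difference between backgrounds reversed to -0.56 under spike-in scaling. With the 75th percentile over detected probes 0 were lower in TBP-2-/- minus WT (2.24% of all measured genes) and 5 in ob/ob minus WT (5.16%). With quantile normalization 2 were lower in ob/ob minus WT (5.88% of all measured genes), and the median difference between backgrounds was 0.0438. With the median of a gene's probes 1 was lower in ob/ob TBP-2-/- minus ob/ob (3.81% of all measured genes). That setting gave 2 in ob/ob TBP-2-/- minus TBP-2-/-, where the main setting had 1 and 4.82% of all measured genes. After normexp 7 of 75 members were called for ob/ob by limma, among 1019 of 14973 measured genes. Among single genes, ob/ob minus WT reversed under spike-in scaling for Mrpl33 (0.0076), Mrpl54 (0.0417) and Mrps15 (0.0496), and there the other 5 genes past 1.5-fold in that comparison, and Mrps22 in TBP-2-/- minus WT, kept their direction but were no longer past it. The cause was not tested. No array could be left out and no paired analysis was possible because each genotype has 1 array.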
